A study of Mus musculus with 6 samples.

Results

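The immediate-early transcription factors Fos, Fosb, Jun, Junb, Jund, Egr1, Egr2, Egr3, Atf3 and Ier2 were followed in RNA of the mouse mammary gland on 6 two-colour expression arrays. Probes were taken by the gene name printed on the array, which found 9 of the 10 names and 12 probes, of 27670 genes on the array. Jund had no probe under its own name. A probe carrying the older name Jund1 matched it through its RefSeq accession, and its values are given beside the others as those of Jund. All 9 genes and all 12 probes passed the filter on dim signals.

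There was 1 array for each of 6 groups, so no group had replicates. The sorted gate P4 holds CD24+CD29hi cells and is enriched in stem cells of the gland (MaSC), the sorted gate P5 holds CD24+CD29lo cells and is enriched in progenitors of the luminal lineage, and MEC is the total epithelial preparation, which was not enriched. Each was taken from mice heterozygous for a knockout of ∆Np63 (het) and from wild-type mice (WT). All mice were virgin and of the strain C57/B6, and all glands were dissociated into single-cell suspensions before RNA was extracted. ∆Np63 is the form of p63, a transcription factor of basal epithelia, that starts downstream of the transactivation domain. Neither the number of mice behind an array nor their age is given in the labels.

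Immediate-early genes are transcribed within minutes of a growth factor, a mechanical stimulus or stress, without new protein synthesis. FOS and JUN proteins pair to form the AP-1 factor, EGR proteins bind GC-rich sites through zinc fingers, and ATF3 is a stress-induced member of the same leucine-zipper class as FOS and JUN. In many tissues, the dissociation of cells is itself known to induce these genes. In the mammary gland, P4 holds the basal cells and P5 the luminal ones.

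Each value is a log2 ratio of the sample, in Cy5, over a common reference RNA from a mix of 11 mouse cell lines, in Cy3. A value of 0 is the level of the reference, and values of different genes cannot be ordered against each other. Between 74.3% and 89.8% of the non-control spots on an array were well above background in Cy5. The 4 sorted samples shared slide 1 and both MEC samples slide 2, where the median raw Cy3 intensity was 116 and 118, against 252 to 290 on slide 1, so MEC and slide cannot be told apart. Each het sample was printed at a later position of its slide than its WT partner, and position on the slide cannot be told apart from genotype. Single local backgrounds in Cy5 reached 4502 intensity units on the WT P4 array and 2821 on the WT MEC array, against medians of 35.5 and 36, and lower maxima on the other 4. For that reason values are also given with local backgrounds that the scanner software had marked as outliers replaced by the median of the other spots.

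The basal and luminal markers followed the gates. All 9 measured basal markers rose in P4 relative to P5, by a median of 4.18 on the log2 scale. All 9 measured luminal markers fell, 8 of them at a limma adjusted p below 0.05, with a median over the 9 of -3.66. Trp63, which encodes p63, had a log2 ratio of 5.29 in het P4 and 4.41 in WT P4, of 0.89 in het P5 and 0.46 in WT P5, and of 2.65 in het MEC and 2.78 in WT MEC. It was not lower in het samples of P4 or P5, and its mean het minus WT difference turned from 0.40 to -0.40 with outlier backgrounds replaced. Whether this probe lies in the deleted part is not given in the sources used here, so it does not check the genotype.

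Windows upstream of annotated transcript starts of some of the 10 genes are shown first. RefSeq promoter windows in build GRCm38.p6 were found for 7 of the 10 names, and not for Egr1, Egr3 and Ier2. Fos and Jun are shown because they were lower in P4 than in P5, and Egr2 because it was higher in P4 by the largest difference among these genes. Fosb is shown as a gene that did not pass the test. Jund, which was also lower in P4, had a window too, as did Junb and Atf3, and these are not shown. Each line gives the 250 bases before an annotated start, 5′ to 3′ on the strand of the gene, and capitals mark the motifs searched. Egr2 has 5 annotated windows, of which the third by position is shown. That window lies inside the Egr2 locus, before an internal start, and the Fosb window overlaps the end of the Fosb locus.

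Fos, chr12:85473640-85473889, plus strand: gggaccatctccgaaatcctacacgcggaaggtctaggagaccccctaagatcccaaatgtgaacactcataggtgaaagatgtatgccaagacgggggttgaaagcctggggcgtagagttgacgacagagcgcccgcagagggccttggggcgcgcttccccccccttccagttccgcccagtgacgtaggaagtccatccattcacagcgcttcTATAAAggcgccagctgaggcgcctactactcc
Jun, chr4:95052223-95052472, minus strand: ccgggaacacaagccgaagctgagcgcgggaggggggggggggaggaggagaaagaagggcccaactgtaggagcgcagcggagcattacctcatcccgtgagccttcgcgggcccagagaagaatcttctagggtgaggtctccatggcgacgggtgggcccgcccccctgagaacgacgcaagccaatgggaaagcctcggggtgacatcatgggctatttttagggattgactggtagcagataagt
Egr2, chr10:67537619-67537868, plus strand: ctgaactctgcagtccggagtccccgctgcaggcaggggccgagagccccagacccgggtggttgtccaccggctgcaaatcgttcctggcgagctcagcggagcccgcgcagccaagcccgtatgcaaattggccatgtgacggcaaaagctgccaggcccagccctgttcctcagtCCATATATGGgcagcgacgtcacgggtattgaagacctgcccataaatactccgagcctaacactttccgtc
Fosb, chr7:19310046-19310295, minus strand: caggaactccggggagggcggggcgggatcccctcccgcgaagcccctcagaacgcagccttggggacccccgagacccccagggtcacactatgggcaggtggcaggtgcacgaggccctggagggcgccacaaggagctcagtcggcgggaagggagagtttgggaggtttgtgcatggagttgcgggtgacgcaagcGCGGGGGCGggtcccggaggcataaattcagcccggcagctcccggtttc

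The motifs were the CArG box, at which serum response factor binds, TGACGTCA (bound by CREB and ATF proteins), TGACTCA (bound by AP-1), GCGGGGGCG (bound by EGR proteins) and TATAAA, each on both strands. A CArG box lay 72 bases before the annotated start of the Egr2 window shown. All Egr2 windows but the first by position, 4 of the 5, held one, against 1.47% of all 32851 windows of this length. The last 3 of these windows overlap and hold the same site. The Fos window held TATAAA 33 bases before the start, a motif present in 12.4% of all windows, and the Fosb window held GCGGGGGCG 50 bases before the start, present in 2.57%. Neither TGACGTCA (1.55% of all windows) nor TGACTCA (4.46%) was present in any window of these 7 genes. None of the motifs was present in the windows of Jun, Junb, Jund and Atf3. A match of letters is a description of the window and does not show that a protein binds there.

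P4 was set against P5 to ask which of these genes differ between the basal gate enriched for stem cells and the luminal gate. Egr2 rose in P4, and Fos, Jun and Jund fell, while the other 6 genes did not pass the test. Of the 9 genes found by name, 3 passed at an adjusted p below 0.05, against 10.5% of all 24691 genes tested. With Jund it was 4 of 10, of which 1 was higher (5.02% of all genes) and 3 were lower (5.52%). The test was an additive limma fit of population and genotype over all 6 arrays, adjusted by Benjamini-Hochberg over all genes. It leaves 2 residual degrees of freedom, and its residual is the extent to which the genotype difference varies between populations, so its p-values measure only the spread between these arrays. In RNA from whole populations, fewer cells that express a gene and less RNA per cell cannot be told apart.

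**Figure D1:**
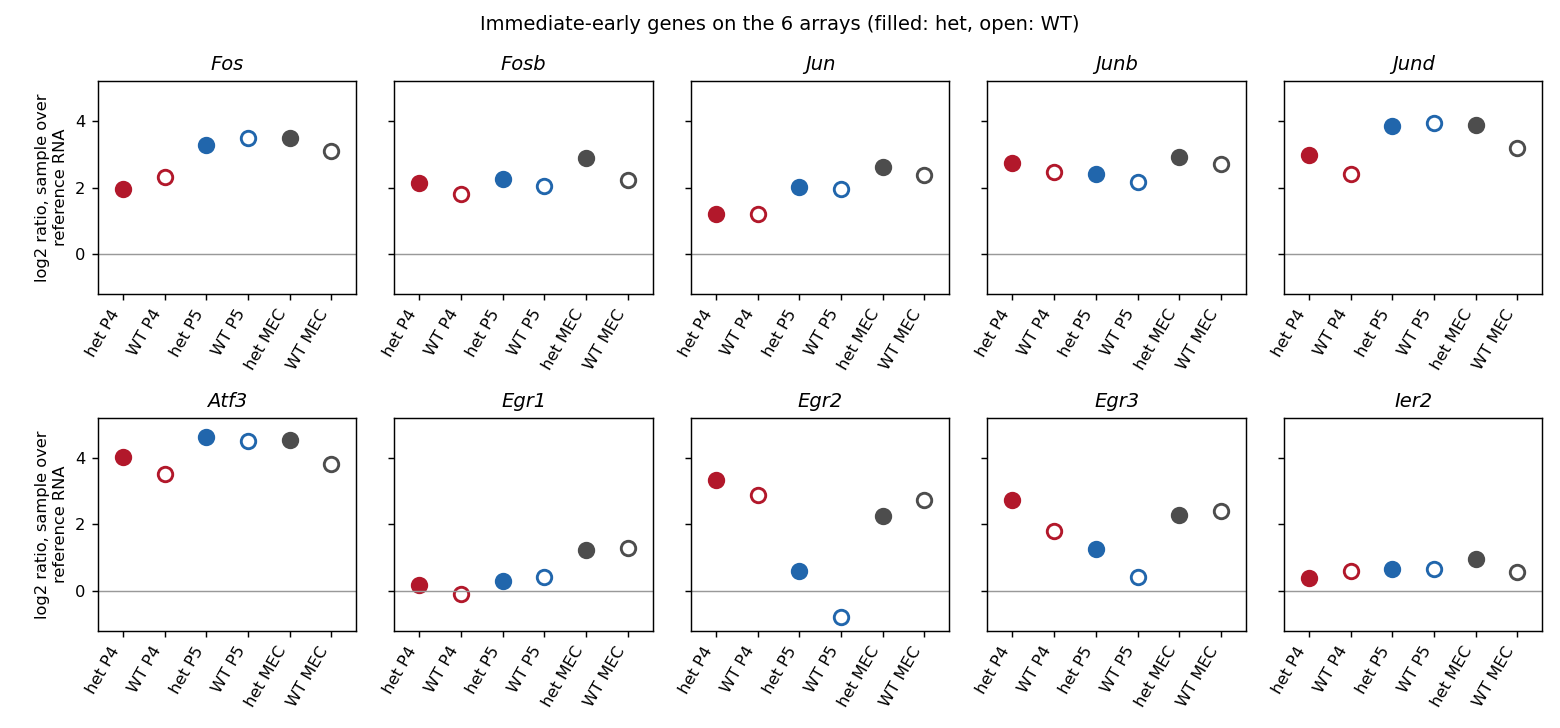
The log2 ratio of sample over reference RNA (vertical axis) for each of the 10 genes on each array (horizontal axis), with het samples as filled and WT samples as open points. Egr2 is high in P4 and MEC and low in P5, at 0.59 in het P5 and -0.78 in WT P5, while Fos is lowest in both P4 samples.

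Among the AP-1 genes, Fos (chr12:85473890-85477274 in GRCm38.p6) encodes the partner that cannot pair with itself and needs a JUN protein. Its log2 ratio was 1.96 in het P4 and 2.32 in WT P4, against 3.29 in het P5 and 3.49 in WT P5, and 3.49 in het MEC and 3.11 in WT MEC. Both P4 samples were below all 4 other samples, and the P5 and MEC samples lay close together. The Fos probe was printed 10 times on each array, and the SD over those spots was 0.023 to 0.054. Fos fell by 1.25 on the log2 scale in P4 relative to P5 (SE 0.21, limma adjusted p = 0.0364), and the difference was -1.34 in het and -1.17 in WT. Under median centring in place of loess the difference was -1.24 but the adjusted p was 0.172.

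Jun (chr4:95049036-95052222) encodes the founding JUN protein. Its log2 ratio was 1.22 in both het P4 and WT P4, against 2.01 in het P5 and 1.96 in WT P5, and 2.61 in het MEC and 2.38 in WT MEC. The populations were ordered P4, P5, MEC from low to high without overlap, and het and WT lay within 0.23 of each other in each population. Jun fell by 0.77 in P4 relative to P5 (SE 0.12, limma adjusted p = 0.0318). The call was lost with the scanner software's own log ratio, at -0.76 and an adjusted p of 0.0702, and under median centring, at -0.75 and 0.259.

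Jund (chr8:70697739-70700616), a JUN protein known for a steadier level than Jun after stimulation, had a log2 ratio of 2.99 in het P4 and 2.41 in WT P4, against 3.84 in het P5 and 3.93 in WT P5. In MEC it was 3.87 in het and 3.19 in WT. Both P4 samples were below the P5 and MEC samples, and WT MEC was only 0.20 above het P4. Jund fell by 1.18 in P4 relative to P5 (SE 0.23, limma adjusted p = 0.0466), a call lost with no filter on dim probes (adjusted p = 0.0538) and under median centring (0.0646).

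Fosb and Junb did not pass the test between P4 and P5. Fosb (chr7:19302696-19310118), a close relative of Fos, had a log2 ratio of 2.15 in het P4 and 1.81 in WT P4, against 2.25 in het P5 and 2.06 in WT P5, with 2.90 in het MEC and 2.24 in WT MEC. Apart from het MEC, the highest, the neighbours in this order were no further apart than 0.26. The P4 minus P5 difference of Fosb was -0.18 (SE 0.16, limma adjusted p = 0.582), and 0.017 with outlier backgrounds replaced.

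Junb (chr8:84976909-84978748), a JUN protein that often opposes Jun, had 2 probes at overlapping positions. The brighter one gave a log2 ratio of 2.74 in het P4 and 2.48 in WT P4, against 2.42 in het P5 and 2.18 in WT P5, and 2.93 in het MEC and 2.71 in WT MEC. Both P4 samples were above both P5 samples, by 0.32 in het and 0.30 in WT, and the mean difference of 0.31 (SE 0.11) had a limma adjusted p of 0.154. The other probe gave 2.04 in het P4 and 2.21 in WT P4, against 2.05 in het P5 and 2.01 in WT P5, a mean difference of 0.093. In both probes the whole range over the 6 arrays was narrow.

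Atf3 (chr1:191170296-191183333) had a log2 ratio of 4.03 in het P4 and 3.52 in WT P4, against 4.63 in het P5 and 4.49 in WT P5, and 4.52 in het MEC and 3.80 in WT MEC. Both P4 samples were below both P5 samples, and WT MEC lay between the P4 values. The P4 minus P5 difference of -0.79 (SE 0.18) had a limma adjusted p of 0.0640. It passed the test in the 4 sorted arrays alone (adjusted p = 0.0251), where 4637 of 24801 genes passed. On the Cy5 level alone it passed at -1.19 (adjusted p = 0.0161), where 3070 of 24691 genes passed.

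The EGR genes did not move together. Egr2 (chr10:67534469-67542188), known for its part in myelination and hindbrain patterning, had a log2 ratio of 3.33 in het P4 and 2.88 in WT P4, against 0.59 in het P5 and -0.78 in WT P5. In MEC it was 2.26 in het and 2.73 in WT. Both P5 samples were far below the 4 other samples, and WT P5 was the only sample below the reference RNA. Each value is a mean over 10 spots with an SD of 0.046 to 0.061, and the probe was well above background on every array. Egr2 rose by 3.19 in P4 relative to P5 (SE 0.45, limma adjusted p = 0.0255). The difference of single arrays was 6.67-fold in het and 12.6-fold in WT. No alternative that kept all arrays of the comparison ended this call.

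Egr3 (chr14:70077317-70082613), a close relative of Egr2, had a log2 ratio of 2.72 in het P4 and 1.82 in WT P4, against 1.25 in het P5 and 0.43 in WT P5, and 2.29 in het MEC and 2.41 in WT MEC. Both P4 samples were above both P5 samples. The difference of 1.43 (SE 0.29) had a limma adjusted p of 0.0524. With outlier backgrounds replaced it was 1.88 with an adjusted p of 0.0296, and WT P4 was then 2.67. The other Egr3 probe was dim, with log2 ratios from -0.12 to 0.22 on all 6 arrays, and did not show the difference (mean 0.19). Averaging both probes gave 0.81, which did not pass. With outlier backgrounds replaced, 15% of all genes passed in P4 minus P5. Egr3 also passed with a normexp offset of 0 (limma adjusted p = 0.0279), where 3096 of 24691 genes passed. With the scanner software's log ratio it passed too (0.0396), where 3234 of 24691 genes did, but under median centring alone it did not.

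Egr1 (on chromosome 18) is the best studied gene of the family. Its log2 ratio was 0.17 in het P4 and -0.077 in WT P4, against 0.31 in het P5 and 0.43 in WT P5, and 1.24 in het MEC and 1.29 in WT MEC. The 4 sorted samples lay close to the reference RNA and both MEC samples stood above them. The P4 minus P5 difference was -0.32 (SE 0.14, limma adjusted p = 0.242). With median centring and outlier backgrounds replaced it was -0.75 and passed, at an adjusted p of 0.0155. There 4783 of 24691 genes passed, 3628 of them as lower.

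Ier2 (chr8:84661331-84662852) encodes a nuclear protein named for its immediate-early response. Its brighter probe gave a log2 ratio of 0.39 in het P4 and 0.59 in WT P4, against 0.66 in het P5 and 0.65 in WT P5, and 0.96 in het MEC and 0.58 in WT MEC. The samples overlapped, and the P4 minus P5 difference was -0.16 (SE 0.17, limma adjusted p = 0.671). The other probe was dim and disagreed, at -1.22 in het P4 and -0.31 in WT P4, against -0.55 in het P5 and 1.25 in WT P5, so the level of Ier2 is uncertain.

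**Figure D2:**
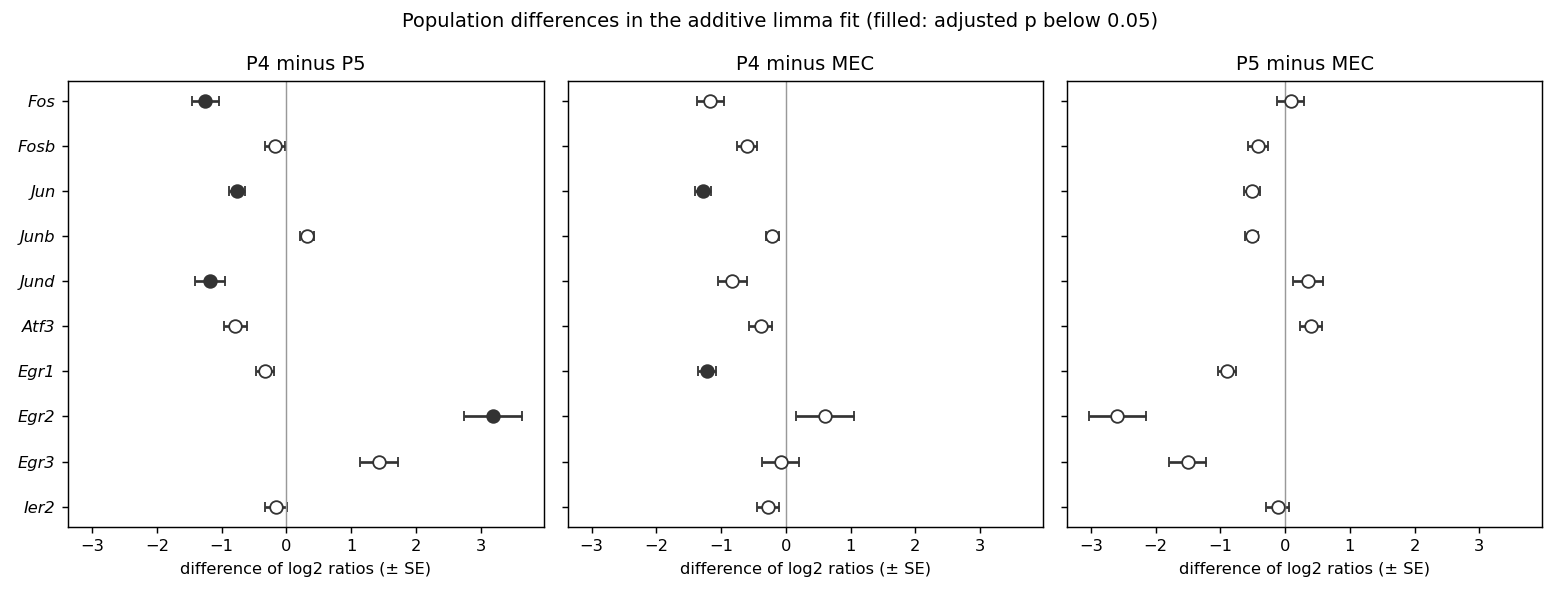
Differences of log2 ratios between populations (horizontal axis, ± SE of the additive limma fit) for the 10 genes (vertical axis), filled where the adjusted p was below 0.05. Egr2 lies at 3.19 for P4 minus P5 and -2.59 for P5 minus MEC, and Fos at -1.25 and 0.087.

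All of these calls rest on the 4 sorted arrays. Leaving out any one of them left 0 genes of the whole array called in each population contrast, with 3758 to 7544 genes at an unadjusted p below 0.05 for P4 minus P5 over the 6 fits that each left out 1 array. The directions held: over those fits the P4 minus P5 difference ranged from 2.51 to 3.88 for Egr2, from -1.48 to -1.03 for Fos, from -0.84 to -0.69 for Jun and from -1.54 to -0.82 for Jund.

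Markers of other cell types moved with the gates too. All 9 fibroblast markers were higher in P4 than in P5, 3 of them past the test, with a summed Cy5 level (log2) of 15.3 in het P4 and 14.8 in WT P4, against 14.4 in het P5 and 13.4 in WT P5. All 8 leukocyte markers were higher in P4 with none past the test, and the summed level was 13.9 in het P4 and 12.8 in WT P4, against 12.5 in het P5 and 11.9 in WT P5. Such a sum weighs the brightest markers most. The median log2 ratio of the 8 was -1.90 in het P4 and -1.44 in WT P4, against -2.24 in het P5 and -2.50 in WT P5. Within P4, 3 of the 8 were higher in het and 5 lower. No fibroblast or leukocyte marker was below background on any array. None of the 7 endothelial markers passed, and their median difference was 0.11. With outlier backgrounds replaced that median was 0.54, and Cldn5 passed as higher in P4, at 0.72 (limma adjusted p = 0.0463), where 15% of all genes passed. None of the 6 adipocyte markers passed in either setting, and as measured 5 were higher in P4 and 1 lower. The part of these cells in the P4 and P5 values of the immediate-early genes was not tested.

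P4 and P5 were each set against MEC to place the gates relative to the epithelium as a whole. Against MEC, Jun and Egr1 fell in P4, so that 2 of the 9 genes passed, beside 6.86% of all genes (2.75% higher and 4.1% lower). Jun fell by 1.28 (SE 0.12, limma adjusted p = 0.0236) and Egr1 by 1.22 (SE 0.14, adjusted p = 0.0289). Fos had a difference of -1.17 (SE 0.21) and an adjusted p of 0.0517, and it passed with outlier backgrounds replaced, at -1.12 and 0.0300, where 17.9% of all genes passed. Egr2, at 0.60 (SE 0.45, adjusted p = 0.468), and Egr3, at -0.080 (SE 0.29, adjusted p = 0.902), did not pass.

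P5 minus MEC gave no called gene among the 10, beside 3.93% of all genes (0.923% higher and 3.01% lower). The largest differences were those of Egr2, at -2.59 (SE 0.45, limma adjusted p = 0.0598), Egr3, at -1.51 (SE 0.29, adjusted p = 0.0718), and Egr1, at -0.89 (SE 0.14, adjusted p = 0.0510). With outlier backgrounds replaced, Egr2 passed at -2.71 (adjusted p = 0.0426) and Egr1 at -0.92 (0.0310), where 6.16% of all genes passed. With a normexp offset of 0, Egr2 (adjusted p = 0.0246), Egr3 (0.0287) and Egr1 (0.0444) passed, where 1587 of 24691 genes did. With the scanner software's log ratio, only Egr2 of the 10 passed (0.0469), where 1604 of 24691 genes did. Fos had a P5 minus MEC difference of 0.087 (SE 0.21, adjusted p = 0.856). P4 minus MEC and P5 minus MEC share both MEC samples.

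Values against MEC depended on the scaling between slides. Under median centring in place of loess, the P4 minus MEC difference was -2.50 for Fos, -1.74 for Junb and -1.73 for Fosb. All 10 genes except Egr2 passed the test there as lower in P4, where 6658 of all 24691 genes passed as lower. The P5 minus MEC difference of Fos was then -1.25, and the 9 other genes passed as lower in P5, where 7796 of all 24691 genes did. The same scaling moved the median of all genes to -0.23 for P4 minus MEC and -0.35 for P5 minus MEC, against 0.038 and 0.025 with loess. All 9 fibroblast markers were higher in MEC, and 5 of them fell past the test in P4 and 8 in P5. Their summed level was 15.3 in het P4 and 14.8 in WT P4, against 17.6 in het MEC and 18.5 in WT MEC. Of the 7 endothelial markers, 6 were called lower in P4 than in MEC, with a summed level of 12.4 in het P4 and 12.1 in WT P4, against 15.2 in both MEC samples. The part of such cells, which the total preparation still held, in the higher Egr1 and Jun of MEC was not tested.

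The het and WT samples were compared to ask whether loss of 1 ∆Np63 copy altered these genes. None of the 10 genes passed, and neither did any other gene (0% of 24691, lowest limma adjusted p = 0.206), although 5161 genes had an unadjusted p below 0.05. By another processing, with outlier backgrounds replaced, the count was again 0, with 3637 genes at an unadjusted p below 0.05. The mean het minus WT difference was largest for Egr3, at 0.54 (SE 0.24, limma adjusted p = 0.282), Atf3, at 0.46 (SE 0.14, adjusted p = 0.211), and Egr2, at 0.45 (SE 0.36, adjusted p = 0.519). Fosb was at 0.40 (SE 0.13, adjusted p = 0.212), Jund at 0.39 (SE 0.18, adjusted p = 0.305) and Junb at 0.24 (SE 0.087, adjusted p = 0.231). Jun was at 0.095, Egr1 at 0.025, Fos at -0.058 and Ier2 at 0.063, or -0.49 for Ier2 as the mean over both of its probes. Under median centring all 10 differences were below 0, the median of all genes was -0.21 and 7821 genes passed. Fos (-1.15), Egr1 (-1.14), Ier2 (-1.07), Jun (-0.99), Junb (-0.96) and Jund (-0.78) were among them as lower in het, with adjusted p of 0.0286 to 0.0431. These calls were lost under median centring with outlier backgrounds replaced, where 0 genes passed and the median of all genes was -0.025. Egr1 was then at -0.61 and Jun at -0.51. In the 4 sorted arrays alone 853 genes passed, with Egr3 at 0.86 (adjusted p = 0.0416), and an offset of 0 gave 412 genes.

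**Figure D3:**
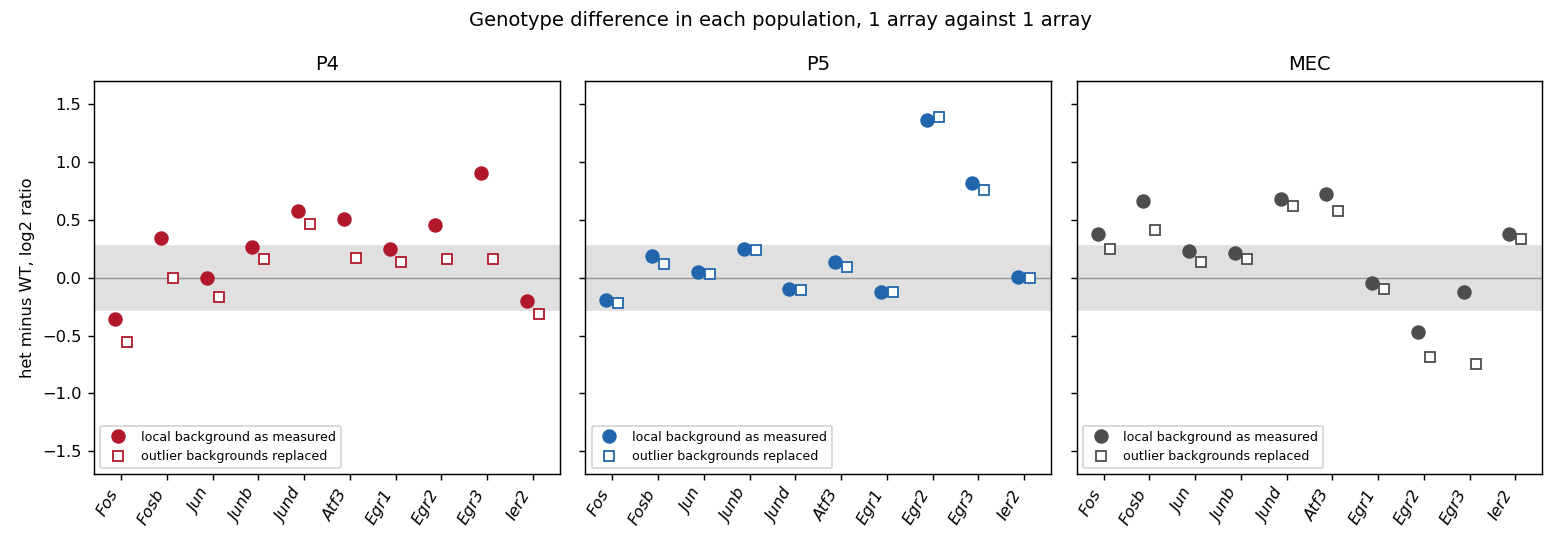
The het minus WT difference of log2 ratios (vertical axis) for the 10 genes (horizontal axis) in P4, P5 and MEC, as measured (circles) and with outlier local backgrounds replaced (squares). The grey band is ± 0.278, 1.96 times the SD of a difference of repeated spots, and Egr2 in P5 lies outside it at 1.37 and 1.39.

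Within a population the genotypes differ by 1 array against 1 array, so those differences have no test. Probes printed 10 times, of which there were 245, gave an SD of 0.10 for a single spot. Differences beyond 0.278 exceed what repeated single spots on an array allow. This limit leaves out the spread between arrays and between animals. It is a limit for single spots, while the values of Fos, Jun and Egr2 are means over repeated spots. Among the probes that represent the 10 genes, at least 2-fold was reached once, by Egr2 in P5, at 2.58-fold higher in het (0.59 in het P5 and -0.78 in WT P5), where 3.08% of all genes differed that much. None of these probes reached it in P4 (6.02% of all genes) or in MEC (2.71%). The dim other probe of Ier2 had a larger difference in P5, of -1.80 on the log2 scale (-0.55 in het P5 and 1.25 in WT P5), with -0.91 in P4 and -0.44 in MEC. The brighter Ier2 probe gave -0.20 in P4, 0.0065 in P5 and 0.38 in MEC, so the probes disagree on genotype too. In P4 the Egr2 difference was 0.45 (0.16 with outlier backgrounds replaced), and in MEC it was -0.47 (-0.68), so the sign in MEC was opposite to that in P5. That difference between populations was not tested. Over all alternatives the Egr2 difference ran from 0.50 to 1.43 in P5 and from -1.13 to 0.46 in P4, with the lowest P4 value under median centring.

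Egr3 was 0.90 higher in het P4 than in WT P4, but 0.16 higher with outlier backgrounds replaced. In P5 it was 0.82 higher in het (0.76), and in MEC the difference was -0.12 (-0.74). The Egr3 difference in MEC as measured is inside 0.278, and the dim other Egr3 probe gave 0.19 in P4, -0.12 in P5 and 0.057 in MEC. Atf3 was 0.51 higher in het P4 (0.17), 0.14 in het P5 (0.097) and 0.72 in het MEC (0.58). Fosb was 0.66 higher in het MEC (0.42) and 0.34 in het P4 (-0.0058). Jund was 0.58 higher in het P4 (0.46) and 0.68 in het MEC (0.62), and -0.095 in P5 (-0.10). For Fos the difference was -0.36 in P4 (-0.56) and -0.19 in P5 (-0.22), against 0.38 in MEC (0.25). The differences of Jun, Egr1 and the brighter Junb probe stayed inside 0.278 in all 3 populations, and the other Junb probe was 0.37 higher in het MEC. Of these 30 differences within a population, 22 turned sign under at least 1 alternative, and the 8 that did not were Fos and Ier2 in P4, Fos, Egr2 and Egr3 in P5, and Fosb, Egr1 and Egr2 in MEC. In P4, Jun ran from -1.58 to 2.97e-05, Fosb from -1.03 to 0.39, Atf3 from -1.08 to 0.51 and Egr3 from -0.22 to 1.03.

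Across the 6 arrays the genes fell into different patterns, which is given as a description, since the arrays share slides, sorts and a reference. Pearson's r with Fos was 0.87 for Jun and 0.85 for Jund, and -0.69 for Egr2. Egr3 followed Egr2 with r = 0.94, and Junb had 0.78 with Egr2, each by the brighter of its probes. The r of the other probes was not calculated. The other Junb probe had 2.04 in het P4 and 2.21 in WT P4, against 2.05 in het P5 and 2.01 in WT P5. The dim other Egr3 probe ran from -0.12 to 0.22 over the arrays. Among 9877 other genes that were above background on every array and varied enough, the genes most like Fos were Slfn2 (r = 0.997), Zbtb8os (0.996), Ankrd33b (0.996), Mpv17l2 (0.994) and Il13ra1 (0.994). Slfn2 had a log2 ratio of -0.74 in het P4 and -0.27 in WT P4, against 1.17 in het P5 and 1.31 in WT P5. With outlier backgrounds replaced these correlations ranged from 0.88 for Mpv17l2 to 0.97 for Slfn2.

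Other immediate-early genes also went both ways between P4 and P5. Of 42 measured, 7 rose and 6 fell in P4, against 5.02% and 5.52% of all genes, with a median difference of -0.16, against 0.040 over all genes. Those that rose most were Ccn2, a matrix-associated target of YAP and serum response factor (4.27, SE 0.43, limma adjusted p = 0.0139), and Arc, an activity-regulated gene of neurons (3.94, SE 0.41, adjusted p = 0.0144). Errfi1, a feedback inhibitor of the EGF receptor, rose by 1.85 (SE 0.12, adjusted p = 0.00799), and the nuclear receptor Nr4a2 by 1.49 (SE 0.11, adjusted p = 0.00894).

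Arc, like Egr2, was lowest in P5: it had a log2 ratio of 5.50 in het P4 and 4.91 in WT P4, against 1.89 in het P5 and 0.64 in WT P5, and 2.93 in het MEC and 3.34 in WT MEC. Among the genes that passed as lower, the largest falls were those of Phlda1, at -2.33 (SE 0.13, limma adjusted p = 0.00674), and Btg1, an antiproliferative factor, at -1.94 (adjusted p = 0.0255). The NF-κB inhibitors Nfkbia, at -1.36 (adjusted p = 0.0266), and Nfkbiz, at -1.35 (0.0243), came next among them. Gadd45a, at -1.47, and Gadd45g, at -1.40, did not pass. Phlda1 had a log2 ratio of -0.024 in het P4 and 0.11 in WT P4, against 2.22 in het P5 and 2.52 in WT P5, an order it shared with Fos.

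**Figure D4:**
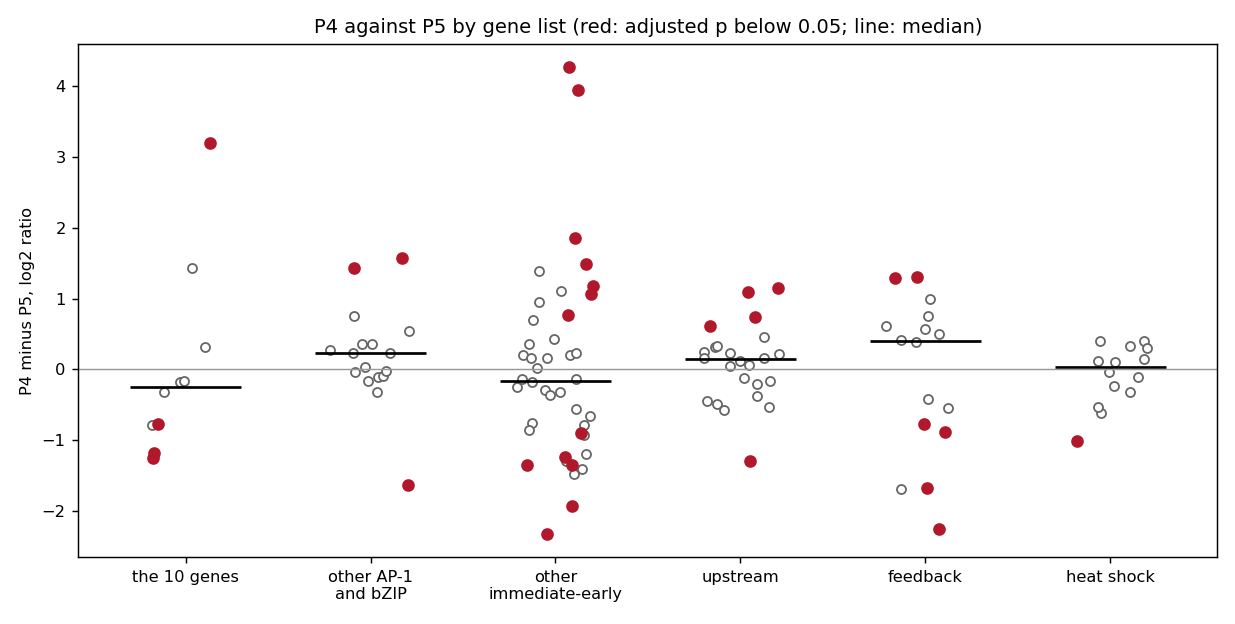
P4 minus P5 differences of log2 ratios (vertical axis) for the 10 genes and for 5 lists of related genes (horizontal axis), red where the adjusted p was below 0.05, with the median as a line. Each list holds genes in both directions, from 4.27 for Ccn2 to -2.33 for Phlda1.

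Of 17 other AP-1 and related leucine-zipper genes, 2 rose and 1 fell in P4 relative to P5, against 5.02% and 5.52% of all genes, with a median of 0.23. The small MAF protein gene Maff rose by 1.57 (SE 0.15, limma adjusted p = 0.0124) and Fosl2, another FOS family gene, by 1.43 (SE 0.16, adjusted p = 0.0158). Batf, a leucine-zipper partner of JUN proteins best known in lymphocytes, fell by 1.63 (SE 0.14, adjusted p = 0.0110). Fosl2 had a log2 ratio of 2.50 in het P4 and 1.91 in WT P4, against 0.87 in het P5 and 0.67 in WT P5, opposite in order to Fos. In MEC, Fosl2 was at 2.32 in het and 2.18 in WT, and its P5 minus MEC difference was -1.48 (SE 0.16, adjusted p = 0.0261).

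Of 24 genes upstream of immediate-early transcription, 4 rose and 1 fell in P4 relative to P5, against 5.02% and 5.52% of all genes. Among those that rose, Srf, which encodes serum response factor, was higher by 1.09 (SE 0.19, limma adjusted p = 0.0370). Its coactivator gene Mrtfa was higher by 1.15 (SE 0.16, adjusted p = 0.0259), and the others that rose are not named here. Mrtfb did not rise, with a log2 ratio of 0.52 in het P4 and 0.15 in WT P4, against 0.60 in het P5 and 0.49 in WT P5. Of the 24 differences, 15 were above 0 and 9 below, with a median of 0.14. Srf had a log2 ratio of 1.89 in het P4 and 1.72 in WT P4, against 1.11 in het P5 and 0.32 in WT P5. The kinase gene Araf fell by 1.30 (SE 0.18, adjusted p = 0.0254).

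Of 16 feedback genes, mostly phosphatases and EGR corepressors, 2 rose and 4 fell, against 5.02% and 5.52% of all genes. The MAP kinase phosphatase genes split: Dusp7 rose by 1.29 (SE 0.18, limma adjusted p = 0.0260), while Dusp10 fell by 2.26 (SE 0.12, adjusted p = 0.00649) and Dusp16 by 1.68 (SE 0.16, adjusted p = 0.0129). Dusp8 fell by 0.78 (SE 0.11, adjusted p = 0.0264), a call lost with outlier backgrounds replaced, at -0.58 and 0.0637. Tob1 fell by 0.88 (SE 0.11, adjusted p = 0.0212). Spred1, an inhibitor of RAS signalling, rose by 1.30 (SE 0.13, adjusted p = 0.0144). Of 14 heat shock genes, 1 fell and none rose, against 5.52% and 5.02% of all genes, with a median difference of 0.037. The one that fell was Hspa1a, an inducible HSP70 gene, at -1.01 (SE 0.19, adjusted p = 0.0437), with a log2 ratio of 6.41 in het P4 and 6.28 in WT P4, against 7.37 in het P5 and 7.34 in WT P5. Its call was lost with outlier backgrounds replaced, at -0.78 and an adjusted p of 0.0722.

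Against MEC, the other immediate-early genes held 3 that rose and 6 that fell in P4, against 2.75% and 4.1% of all genes, and 1 that rose and 5 that fell in P5, against 0.923% and 3.01%. Ier5, a relative of Ier2, fell in both, by 1.74 in P4 (SE 0.12, limma adjusted p = 0.0201) and by 0.85 in P5 (SE 0.12, adjusted p = 0.0401). Between genotypes no gene of these lists passed. The largest mean het minus WT differences were 0.97 for Egr4 (SE 0.19, limma adjusted p = 0.206), which was 0.063 with outlier backgrounds replaced, and -0.95 for the prostaglandin synthase gene Ptgs2 (SE 0.11, adjusted p = 0.206), which was again -0.95. Ptgs2 had a log2 ratio of -1.42 in het P4 and -0.48 in WT P4, -1.69 in het P5 and -0.91 in WT P5, and -1.26 in het MEC and -0.14 in WT MEC, and was lower in het in all 3 populations.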

How the data were processed

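The members and gene lists were chosen with earlier results of these data known. Arrays were scanned with Agilent Feature Extraction 9.5.3.1, per the submitters' processing notes; probe positions are in mm7, per the file headers. The deposited files hold raw intensity per spot and channel, the scanner software's log10 ratio of Cy5 over Cy3 after its own background and dye correction, and flags. The deposited series table holds log2 values that followed the scanner log ratios (r of 0.988 to 0.999), so it runs sample over reference; its column medians were -0.044 to 0.10.

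From the deposited intensity values, normexp (offset 50), loess within each array and averaging of repeated spots gave log2 ratios (R 4.3.3, limma 3.58.1), without flagged spots (74 to 236 per array) and controls. Probes were kept if 2 of 6 or more arrays had them well above background in the sample channel, and a gene was its probe of highest mean Cy5 level. Names came from RefSeq accessions for 22951 of 41174 probes and from synonyms for 3109. A spot counts as above background by the software's flag. At most 1 spot per array was saturated. Of 24829 genes that passed, 24691 were tested. The code was tested on simulated data. The number of arrays limits precision.

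All 10 genes are named, as are the 5 genes most like Fos. Of each list, those named were taken from up to 4 called genes per direction with the largest differences, or up to 2 where none was called. Not every such gene is named. Alternatives changed the background, normalization, signal source, filter, probe rule and arrays.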

Additional observations from a re-analysis of the deposited data

How the results depend on the processing

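No paired analysis was possible because there is 1 array per group and the labels number no replicates; genotype is already a term of the fit. With 1 array left out, the lone sample of its population is assumed to vary like the others. For P4 minus P5, 2603 genes were called, against 3909 with no background correction, 877 with median centring, 4783 with median centring and outlier backgrounds replaced, 4637 with the 4 sorted arrays alone, and 0 to 4626 without 1 array. For P4 minus MEC, 1693 genes were called, against 4421 with outlier backgrounds replaced, 4856 with no background correction, 6983 with median centring, 16420 with median centring and outlier backgrounds replaced, 4345 with the scanner log ratio, 4337 with the deposited table, 3682 with Cy5 alone, and 0 to 4122 without 1 array. For P5 minus MEC, 971 genes were called, against 1522 with outlier backgrounds replaced, 1821 with no background correction, 1587 with an offset of 0, 8240 with median centring, 14367 with median centring and outlier backgrounds replaced, 1604 with the scanner log ratio, 1602 with the deposited table, 1613 with Cy5 alone, and 0 to 2060 without 1 array. For het minus WT, 0 genes were called, against 412 with an offset of 0, 7821 with median centring, 853 with the 4 sorted arrays alone, and 0 to 858 without 1 array. The population counts of 0 came from leaving out any of the 4 sorted arrays, and the genotype counts above 0 from leaving out either MEC array. Median centring moved the median of all genes to -0.23 for P4 minus MEC, -0.35 for P5 minus MEC and -0.21 for het minus WT. With outlier backgrounds also replaced, median centring called 0 genes for het minus WT. The following fitted differences of the 10 genes turned sign, and the cause was not tested; those turned by median centring include called ones. With outlier backgrounds replaced, P4 minus P5 was 0.017 for Fosb, and P4 minus MEC was 0.087 for Egr3, and het minus WT was -0.0012 for Jun, -0.027 for Egr1. With no background correction, P4 minus P5 was 0.017 for Fosb, and P4 minus MEC was 0.054 for Egr3, and het minus WT was -0.025 for Egr1. With median centring and outlier backgrounds replaced, P4 minus P5 was -0.16 for Junb, and P4 minus MEC was -1.005 for Egr2, and P5 minus MEC was -1.29 for Fos, -1.04 for Jund, -0.99 for Atf3, and het minus WT was -0.20 for Fosb, -0.51 for Jun, -0.43 for Junb, -0.26 for Jund, -0.61 for Egr1, -0.20 for Egr2, -0.21 for Egr3, -0.23 for Atf3, -0.55 for Ier2. With median centring, P4 minus MEC was -0.65 for Egr2, and P5 minus MEC was -1.25 for Fos, -1.04 for Jund, -0.95 for Atf3, and het minus WT was -0.52 for Fosb, -0.99 for Jun, -0.96 for Junb, -0.78 for Jund, -1.14 for Egr1, -0.59 for Egr2, -0.18 for Egr3, -0.64 for Atf3, -1.07 for Ier2. With the scanner log ratio, P4 minus MEC was 0.050 for Egr3, and het minus WT was -0.041 for Jun, -0.080 for Ier2. With the deposited table, P4 minus MEC was 0.050 for Egr3, and het minus WT was -0.041 for Jun, -0.080 for Ier2. With Cy5 alone, P4 minus MEC was 0.14 for Ier2, and P5 minus MEC was -0.034 for Atf3, 0.27 for Ier2, and het minus WT was -0.011 for Jun, -9.5e-05 for Egr1, -0.027 for Ier2. With the mean over probes, P4 minus MEC was 0.0068 for Egr3, and P5 minus MEC was 0.32 for Ier2, and het minus WT was -0.49 for Ier2. With an offset of 0, het minus WT was -0.013 for Egr1. With the 4 sorted arrays alone, het minus WT was -0.096 for Ier2. Without 1 array at a time, P4 minus P5 ran from -0.36 to 0.036 for Ier2, and P4 minus MEC ran from -0.57 to 0.41 for Egr3, -0.084 to 1.29 for Egr2, and P5 minus MEC ran from -0.24 to 0.41 for Fos, -0.0087 to 0.72 for Jund, -0.35 to 0.12 for Ier2, and het minus WT ran from -0.28 to 0.093 for Fos, -0.085 to 0.097 for Egr1, -0.0084 to 0.91 for Egr2, -0.096 to 0.19 for Ier2. The directions of Fos, Jun, Jund, Egr2, Egr3, Egr1 and Atf3 between P4 and P5 and of Jun and Egr1 between P4 and MEC held under every alternative run. Of the 30 het minus WT differences within a population, which have no test, 22 turned sign under at least 1 alternative.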
